A study of Homo sapiens with 35 samples.

Results

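The genes described here encode the subunits of the mitochondrial respiratory chain and ATP synthase that are made from nuclear DNA. They were chosen by symbol alone: the NDUFA, NDUFB, NDUFC, NDUFS and NDUFV genes and NDUFAB1 for complex I, SDHA to SDHD for complex II, the UQCR genes and CYC1 for complex III, COX4I1 and COX5A to COX8A for complex IV, and the ATP5 genes for complex V. This rule gave 86 protein-coding symbols, of which 74 had a probe set of their own on the array and make up the members: 32 of 37 symbols of complex I, 3 of 4 of complex II, 8 of 10 of complex III, 13 of 15 of complex IV and 18 of 20 of complex V. The members are 74 of 22384 named genes in all, each read by the probe set with the highest mean over the 35 arrays. NDUFA13, NDUFB8, NDUFC2, NDUFS8, UQCRH, COX6B2, COX7C, ATP5MK and ATP5MF-PTCD1 are read only by probe sets that also name a second gene and are left out, and SDHB and UQCRFS1 were not analysed here.

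The arrays hold RNA of SUM149, a human basal-like inflammatory breast cancer cell line, taken either as polysome RNA or as total RNA. Cells had been given DMSO (the vehicle), IR, PP242, RAD001, PP242 with IR, or RAD001 with IR, and each of the 12 groups has 3 arrays except PP242+IR total RNA, which has 2. PP242 blocks the kinase site of mTOR in both of its complexes, RAD001 (everolimus) is a rapamycin analog that acts on mTOR complex 1 through FKBP12, and IR is read here as ionizing radiation. The labels give no dose or time, their culture and extraction text describes mouse embryo limbs and was not used, and replicates are called biological without saying that they were separate cultures, so p-values measure the spread between these arrays only.

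Complex I (NADH dehydrogenase), complex II (succinate dehydrogenase), complex III (cytochrome bc1) and complex IV (cytochrome c oxidase) pass electrons to oxygen, and complexes I, III and IV pump protons across the inner mitochondrial membrane. Complex V (ATP synthase) lets the protons flow back through a rotating c-ring and a central stalk that drives ATP formation in its F1 head. Each complex has a catalytic core and many small accessory subunits, and except for complex II each also holds subunits made inside mitochondria, whose genes were not analysed here. In other mammalian cells mTOR complex 1 has been reported to favour translation of nuclear mRNAs for mitochondrial proteins, complex V and complex I subunits among them, through the eIF4E-binding proteins. mRNAs that start with a cytosine followed by a run of pyrimidines, the 5' TOP mRNAs of ribosomal proteins, are the best-known translational targets of mTOR.

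Because the inhibitors act on TOP mRNAs, the annotated start sites of the members were read from the RefSeq promoter windows of GRCh38.p14, which held 60 of the 74 members. A C at the start followed by at least 4 more pyrimidines was found in 7 of the 60 members (11.7%), in 729 of 15843 protein-coding genes (4.6%) and in 31 of 44 cytosolic ribosomal protein genes (70.5%). The 7 members are shown from 20 bases before to 20 bases after the start, with the pyrimidine run in capitals. They lie at chr4:139302532-139302571 (minus strand) for NDUFC1, chr16:85799675-85799714 (plus strand) for COX4I1, chr2:42361198-42361237 (minus strand) for COX7A2L, chr20:59032316-59032355 (minus strand) for ATP5F1E, chr12:53676064-53676103 (minus strand) for ATP5MC2, chr11:118401586-118401625 (plus strand) for ATP5MG and chr21:33915785-33915824 (minus strand) for ATP5PO.
NDUFC1: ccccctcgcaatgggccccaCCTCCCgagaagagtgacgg
COX4I1: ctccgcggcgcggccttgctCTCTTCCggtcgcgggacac
COX7A2L: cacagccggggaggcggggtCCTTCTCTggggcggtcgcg
ATP5F1E: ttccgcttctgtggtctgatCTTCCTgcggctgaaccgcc
ATP5MC2: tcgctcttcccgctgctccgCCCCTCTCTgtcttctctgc
ATP5MG: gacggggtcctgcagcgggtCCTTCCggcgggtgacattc
ATP5PO: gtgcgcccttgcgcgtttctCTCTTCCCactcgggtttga

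COX4I1 is the main regulatory subunit of cytochrome c oxidase, ATP5F1E the epsilon subunit of the central stalk, ATP5MC2 a c-ring gene, ATP5MG a small membrane subunit and ATP5PO the stator protein that carries oligomycin sensitivity. NDUFC1 and COX7A2L, the 2 of these 7 that differed between polysome and total RNA of DMSO cells, are described with the polysome comparison. The pyrimidine runs were 6 to 9 bases long. A run at an annotated start is a description of the reference sequence, since the starts used in SUM149 were not measured.

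Letters bound by regulators of mitochondrial genes were searched for on both strands of the same windows, from 250 bases before to 50 after the start. The NRF1 core GCATGCGC was present in 12 of the 60 members (20%) against 4.3% of all 15843 windows, and the ETS letters CCGGAAG, which GABPA binds, in 16 (26.7%) against 14.2%. The YY1 letters ATGGCGG, which can also be a start codon followed by an alanine codon, were present in 16 (26.7%) against 7.6%, and TATAAA in 7 (11.7%) against 9.6%. In all, 23 members had NRF1 or ETS letters, SDHD, COX5B, COX6A1, ATP5ME and ATP5PF had both, and 37 had neither. The windows of the 4 genes that differed between polysome and total RNA and hold any of the first 3 motifs are shown from 120 bases before to 30 after the start, with NRF1, ETS and YY1 letters in capitals. In ATP5F1C the NRF1 core and its reverse complement overlap in 1 run. The stretches are chr10:7788057-7788206 (plus strand) for ATP5F1C, chrX:47144673-47144822 (minus strand) for NDUFB11, chr19:1605433-1605582 (minus strand) for UQCR11 and chr4:674247-674396 (minus strand) for ATP5ME.
ATP5F1C: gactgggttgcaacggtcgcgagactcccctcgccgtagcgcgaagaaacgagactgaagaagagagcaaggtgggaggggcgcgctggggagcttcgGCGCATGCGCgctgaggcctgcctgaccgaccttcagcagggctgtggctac
NDUFB11: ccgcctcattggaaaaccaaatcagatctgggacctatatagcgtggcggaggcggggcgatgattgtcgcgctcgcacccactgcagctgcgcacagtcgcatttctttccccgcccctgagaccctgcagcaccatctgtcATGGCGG
UQCR11: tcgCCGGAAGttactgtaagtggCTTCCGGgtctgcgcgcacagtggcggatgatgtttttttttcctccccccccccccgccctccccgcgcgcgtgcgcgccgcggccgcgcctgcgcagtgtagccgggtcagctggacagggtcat
ATP5ME: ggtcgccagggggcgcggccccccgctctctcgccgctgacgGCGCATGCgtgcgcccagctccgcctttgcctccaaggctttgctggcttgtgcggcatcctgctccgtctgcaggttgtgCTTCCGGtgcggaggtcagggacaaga

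Values are the deposited log2 signals, in which a difference of 1 is a doubling, and levels are compared only within a probe set. In DMSO polysome RNA the members ranged from COX7B2, a paralogue of the complex IV subunit COX7B, at 3.36 ± 0.06 (SD, n = 3) to the complex IV subunit COX8A at 16.9 ± 0.29. The highest members were NDUFS5 in complex I (15.08 ± 0.05), SDHC in complex II (11.74 ± 0.03), the core protein UQCRC2 in complex III (13.64 ± 0.26) and the catalytic subunit ATP5F1B in complex V (16.27 ± 0.15), and the lowest there were NDUFB4 (4.33 ± 0.14), SDHA (8.92 ± 0.30), UQCRB (5.99 ± 0.11) and ATP5MGL (5.75 ± 0.30). These orders mix probe sets of unlike response and rank no transcript. In 3 of 74 members (COX7B2, COX7A1 and NDUFB4) the mean over all arrays lay under 5.16, the median of all named genes. Of 11 basal-like epithelial markers, 9 read at least 11.6 on every array (EPCAM at least 13.8 and KRT5 at least 14.4), while KRT14 (5.71 to 7.69) and ITGB4 (6.14 to 8.49) read lower. Of 4 luminal markers, ESR1 (4.16 to 4.76) and PGR (3.29 to 3.83) were low, and FOXA1 read 5.58 to 7.22 and GATA3 6.89 to 8.68. All-gene medians ran from 5.06 to 5.36. Replicate 3 of the 7 inhibitor groups with 3 arrays and replicate 2 of PP242+IR total RNA stand apart, with DNA replication genes at -1.60 to -1.02 relative to their overall means where the other 27 arrays lay at -0.73 to 0.92. On these 8 arrays the median member lay between -0.27 and 0.24 of its overall mean, against -0.53 to 0.27 on the other 27.

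Subunits of the same complex differed in how their mRNA was spread between polysomes and total RNA of DMSO cells. The ATP synthase rotor subunits ATP5F1D and ATP5F1C and the complex I accessory subunit NDUFB11 were higher in polysome RNA. The complex I accessory subunits NDUFC1 and NDUFB3, UQCR11 of complex III, COX7A2L and ATP5ME of ATP synthase were lower in polysome RNA. These 8 of 74 passed limma's test, 3 higher and 5 lower, where 4.16% of all named genes passed (2.75% higher and 1.41% lower). With genes below the median level filtered out, 9 of the 71 members left passed (12.7%), against 9.49% of the 11192 genes left. The members' share was thus near that of genes of their level. The median difference over the members was 0.16, with 44 above 0 and 30 below, against -0.05 over all named genes and 0.16 over the 11192 named genes whose mean level lay above the median.

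ATP5F1D, the delta subunit of the ATP synthase central stalk, read 13.54, 13.48 and 12.71 on the polysome arrays of DMSO cells and 12, 10.86 and 11.33 on their total RNA arrays. Its lowest polysome array was above its highest total array, and the difference was 1.85 ± 0.41 (SE, adjusted p = 0.0107). ATP5F1C, the gamma subunit that forms the rotating shaft, read 15.96, 16.02 and 15.80 in polysome RNA and 15.13, 15.13 and 14.80 in total RNA. The groups were again apart, by 0.91 ± 0.19 (adjusted p = 0.00784). NDUFB11, an accessory subunit of the membrane arm of complex I, read 11.19, 11.15 and 11.22 in polysome RNA and 10.25, 9.90 and 10.33 in total RNA. Its polysome arrays had an SD of 0.03, and the difference was 1.03 ± 0.20 (adjusted p = 0.00489).

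NDUFC1, a small membrane-arm subunit of complex I, read 6.26, 6.42 and 6.10 in polysome RNA and 7.34, 6.89 and 7.60 in total RNA. Every polysome array was below every total array, with a difference of -1.01 ± 0.19 (adjusted p = 0.00338). NDUFB3, another accessory subunit of that arm, read 8.81, 8.62 and 8.37 against 9.44, 9.41 and 9.99, a difference of -1.01 ± 0.24 (adjusted p = 0.0179). COX7A2L, which binds complex III and complex IV in supercomplexes, read 6.98, 7.07 and 6.59 against 7.70, 8.14 and 7.86, a difference of -1.02 ± 0.27 (adjusted p = 0.0305). Both genes had groups without overlap. UQCR11, the smallest subunit of complex III, read 6.33, 6.30 and 6.09 against 6.72, 7.04 and 7.32, a difference of -0.79 ± 0.22 (adjusted p = 0.04). ATP5ME, the e subunit at the membrane base of ATP synthase, read 10.10, 9.92 and 9.66 against 10.65, 10.61 and 10.77, a difference of -0.78 ± 0.20 (adjusted p = 0.0277). Its total arrays had an SD of 0.08 and its polysome arrays one of 0.22, and the groups were apart, as they were for UQCR11.

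Leaving out 1 of the 6 DMSO arrays at a time left 2 to 7 of the 8 calls, while the share of named genes called ran from 0.737% to 4.16%. NDUFC1 passed in 6 of 6 such fits, NDUFB11 and ATP5F1C in 5, ATP5F1D in 3, NDUFB3 in 2, and UQCR11, COX7A2L and ATP5ME in 1. Without DMSO polysome replicate 2, or without DMSO total replicate 2, 2 members passed, 4 passed without polysome replicate 3 or total replicate 3, and 5 without polysome replicate 1. The call of UQCR11 was also lost with every array centred on its median (adjusted p = 0.0696) and without the 8 arrays that stand apart (adjusted p = 0.0502). ATP5F1E was the next lowest member at -0.98 ± 0.32 and did not pass (adjusted p = 0.0886).

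**Figure D1:**
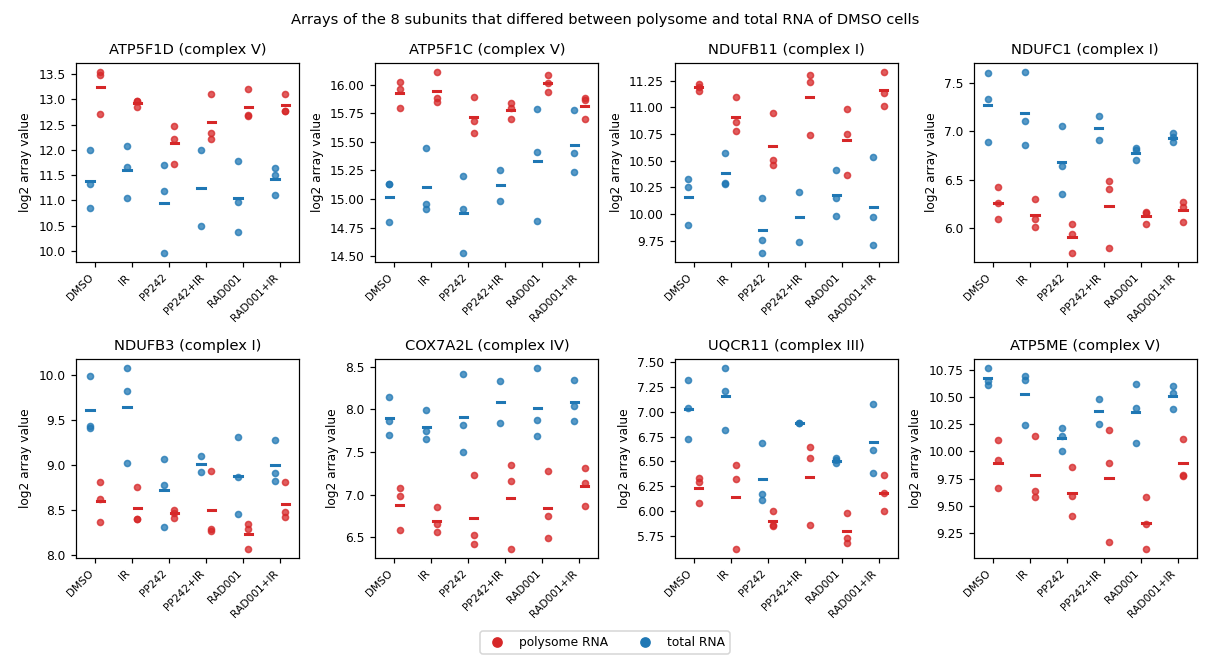
Log2 array values (vertical axis) of the 8 subunits that passed the test between polysome and total RNA of DMSO cells, in each of the 6 treatments (horizontal axis), with a point for every array and a bar for the group mean. ATP5F1D stays on the polysome side, and NDUFC1, COX7A2L, UQCR11 and ATP5ME on the total RNA side, with no overlap of arrays in 6 of 6 treatments.

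The same difference was taken in the other treatments, whose arrays are not those of DMSO. The polysome minus total difference over the 74 members had Pearson's r with that of DMSO cells of 0.93 for IR, 0.86 for PP242, 0.86 for PP242+IR, 0.91 for RAD001 and 0.88 for RAD001+IR, as a description across genes whose points share arrays. In 33 members (44.6%) the polysome mean was the higher in 6 of 6 treatments and in 19 (25.7%) the lower. Over all named genes these shares were 23.5% and 25.7%, and over the named genes above the median level 43.8% and 20.1%. On the polysome side the members' share was near that of other genes of their level. A side is the sign of the difference alone, with no minimum size. Some members lay close to 0 in a treatment, such as COX4I1 (0.01 to 0.80) and COX6B1 (-0.48 to -0.03).

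In complex I the 14 members on the polysome side included NDUFV1 and NDUFV2, which bind NADH's electrons first, and the core iron-sulfur subunits NDUFS1 and NDUFS7. With NDUFS3 these are 5 core subunits, and the other 9 are accessory (NDUFA8, NDUFA9, NDUFA10, NDUFA12, NDUFAB1, NDUFB6, NDUFB9, NDUFB11 and NDUFS4). NDUFV1 read 11.51 to 12.69 (median 11.90) on the 18 polysome arrays and 10.07 to 11.16 (median 10.71) on the 17 total RNA arrays, so that no array overlapped. Its differences ran from 0.77 to 1.65 across treatments, although in DMSO cells alone it did not pass (0.77 ± 0.25, adjusted p = 0.0757). The core subunit NDUFS3 and the accessory subunit NDUFA10 also had polysome and total arrays apart in 6 of 6 treatments, with differences of 0.58 to 1.06 and 0.24 to 0.68. The 7 complex I members on the total RNA side were the accessory subunits NDUFA1, NDUFA5, NDUFA6, NDUFB1, NDUFB3, NDUFC1 and NDUFS6. Of these, NDUFA6 differed by only -0.11 to -0.01, and its arrays overlapped in every treatment.

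In complex III, cytochrome c1 (CYC1) and both core proteins UQCRC1 and UQCRC2 were on the polysome side in 6 of 6 treatments, and the small subunits UQCR11, UQCRB and UQCRHL on the other. CYC1 read 12.30 to 13.34 in polysome RNA and 10.42 to 12.40 in total RNA over all treatments, and within each treatment its arrays did not overlap. Its difference ran from 0.64 to 1.66, and in DMSO cells it was 0.81 ± 0.33 and did not pass (adjusted p = 0.176). The 3 measured complex II members, the flavoprotein SDHA and the membrane anchors SDHC and SDHD, were all on the polysome side. In complex IV, COX4I1, COX5A, COX5B and COX8A lay on the polysome side and COX6A2, COX6B1, COX6C and COX7A2L on the total RNA side.

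Complex V members ranged in polysome minus total difference from ATP5F1D at 1.18 to 1.85 down to the small membrane subunit ATP5MG at -1.09 to -0.72. The catalytic head subunits ATP5F1A and ATP5F1B, the stalk subunits ATP5F1C, ATP5F1D, ATP5PB, ATP5PD, ATP5PF and ATP5PO and the c-ring gene ATP5MC2 were on the polysome side in 6 of 6 treatments. ATP5F1B, the catalytic beta subunit, had differences of 0.76 to 1.37, with polysome arrays at 16.11 to 16.78 and total arrays at 14.45 to 16.19. On the total RNA side were the epsilon subunit ATP5F1E and the small membrane subunits ATP5ME, ATP5MF and ATP5MG with the g-like gene ATP5MGL. ATP5MG read 5.88 to 7.10 on polysome arrays and 6.79 to 7.68 on total arrays, and its arrays were apart within 6 of 6 treatments.

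**Figure D2:**
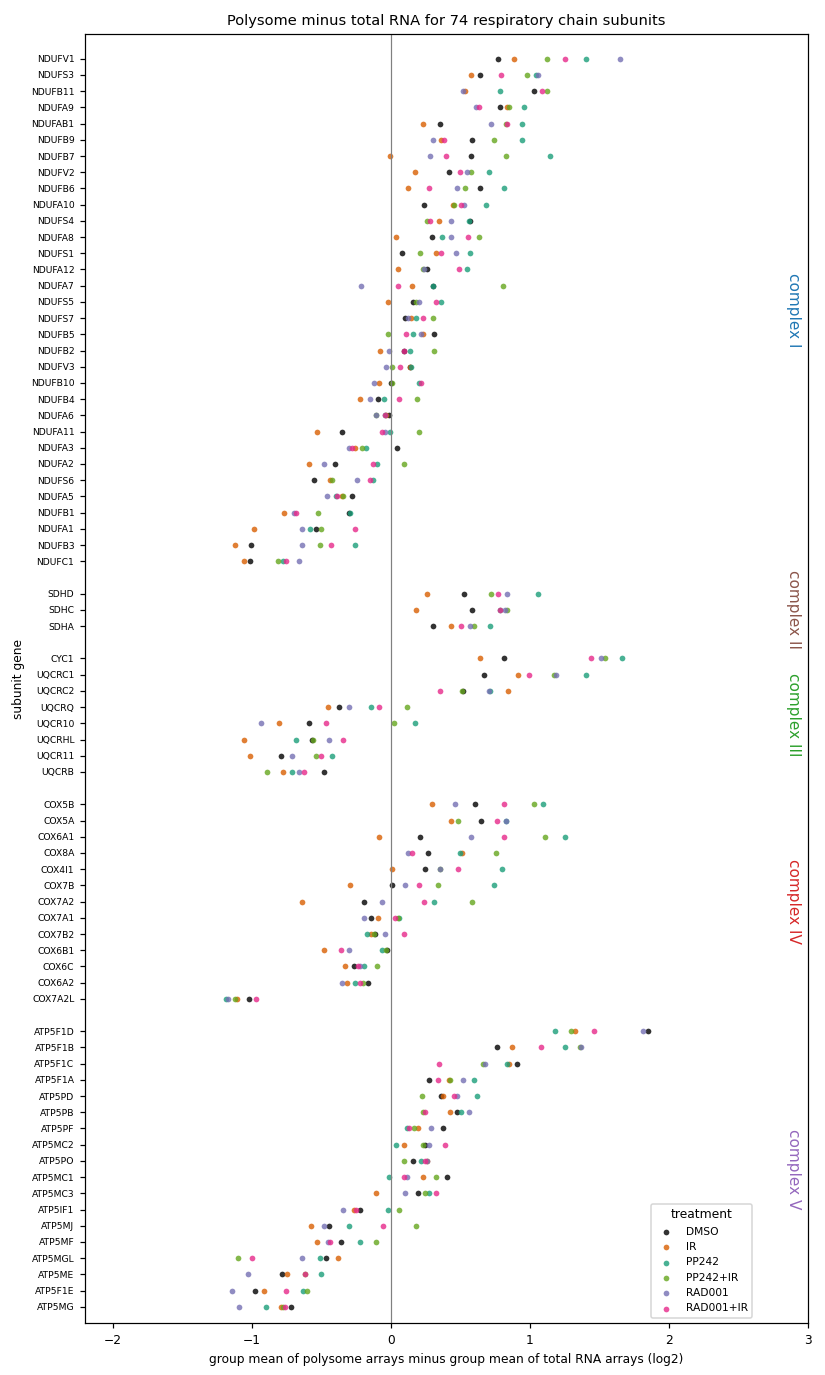
Polysome minus total RNA (horizontal axis, log2 difference of group means) for each of the 74 subunits (vertical axis, grouped by complex and ordered by the mean), with a point for each treatment. ATP5F1D lies farthest to the right and COX7A2L, NDUFC1, ATP5MG and ATP5F1E farthest to the left. The range of a gene over the 6 treatments runs from 0.09 (NDUFA6) to 1.33 (COX6A1) with a median of 0.49.

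PP242 was compared with DMSO to ask how blocking mTOR's kinase changes the RNA on polysomes and in the cell. The arrays measured bulk RNA, so fewer cells with a transcript and less of it per cell cannot be told apart. In polysome RNA 0 of 74 members passed limma's test, where 0.268% of named genes did, and 7 (9.46%) had an unadjusted p under 0.05, against 8.44% of named genes. The median member change was -0.17, with 55 of 74 below 0 (74.3%), against 0.01 over all named genes and -0.09 over those above the median level, of which 63.2% were below 0. By complex the medians were -0.18 for I, 0.11 for II, -0.21 for III, 0.00 for IV and -0.27 for V. The median was -0.08 after quantile normalization, -0.09 without PP242 polysome replicate 2 and -0.28 without the 8 arrays that stand apart.

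Arrays of PP242 and DMSO cells without overlap were counted as well. In polysome RNA 21 members (28.4%) had every PP242 array below every DMSO array, against 12.2% of all named genes and 21.1% of those above the median level. The reverse held for NDUFV1 alone, or 1.35% of members, against 8.69% of named genes and 6.06% of those above the median level. Of the 21, 10 were in complex I, 1 in complex II, 3 in complex III, 0 in complex IV and 7 in complex V. The 7 of complex V were ATP5F1D, ATP5F1E, the c-ring genes ATP5MC1 and ATP5MC3, and the peripheral stalk subunits ATP5PB, ATP5PD and ATP5PF.

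ATP5F1D had the largest difference, with 13.54, 13.48 and 12.71 in DMSO polysome RNA and 12.47, 11.71 and 12.22 with PP242. All PP242 arrays were below all DMSO arrays, by -1.11 ± 0.41 in the means, and the gene did not pass (adjusted p = 0.381). NDUFB11 read 11.19, 11.15 and 11.22 with DMSO and 10.51, 10.46 and 10.94 with PP242, a change of -0.55 ± 0.20 (adjusted p = 0.371). With array weights, which give noisy arrays less say, both passed, ATP5F1D at -1.03 ± 0.29 (adjusted p = 0.0396) and NDUFB11 at -0.64 ± 0.15 (adjusted p = 0.0131), in a fit that called 4.82% of named genes. NDUFB6, a membrane-arm subunit of complex I, read 8.70, 8.77 and 8.74 with DMSO and 8.28, 8.02 and 7.98 with PP242. Its change was -0.65 ± 0.35 (adjusted p = 0.686), and its DMSO arrays were closer together than those with PP242.

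ATP5PF, coupling factor 6 of the peripheral stalk, read 10.37, 10.19 and 9.97 with DMSO and 9.90, 9.30 and 9.59 with PP242, a change of -0.58 ± 0.20 (adjusted p = 0.318). ATP5MC1, a c-ring gene, read 6.90, 7.17 and 6.57 with DMSO and 6.5, 5.88 and 6.55 with PP242, a change of -0.57 ± 0.19 (adjusted p = 0.29). In both genes the groups were narrowly apart. UQCR10, a small subunit of complex III, had a difference in the means of -0.54 ± 0.35 (adjusted p = 0.79). Of the positive differences, that of NDUFV1 was the largest. NDUFV1 read 11.54, 11.74 and 11.71 with DMSO and 11.78, 12.15 and 12.11 with PP242, a change of 0.35 ± 0.25 (adjusted p = 0.844). The next were the complex III core protein UQCRC1 at 0.27 ± 0.31 (adjusted p = 0.945), the complex I core subunit NDUFS1 at 0.26 ± 0.22 (adjusted p = 0.895) and NDUFA10 at 0.25 ± 0.17 (adjusted p = 0.833).

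**Figure D3:**
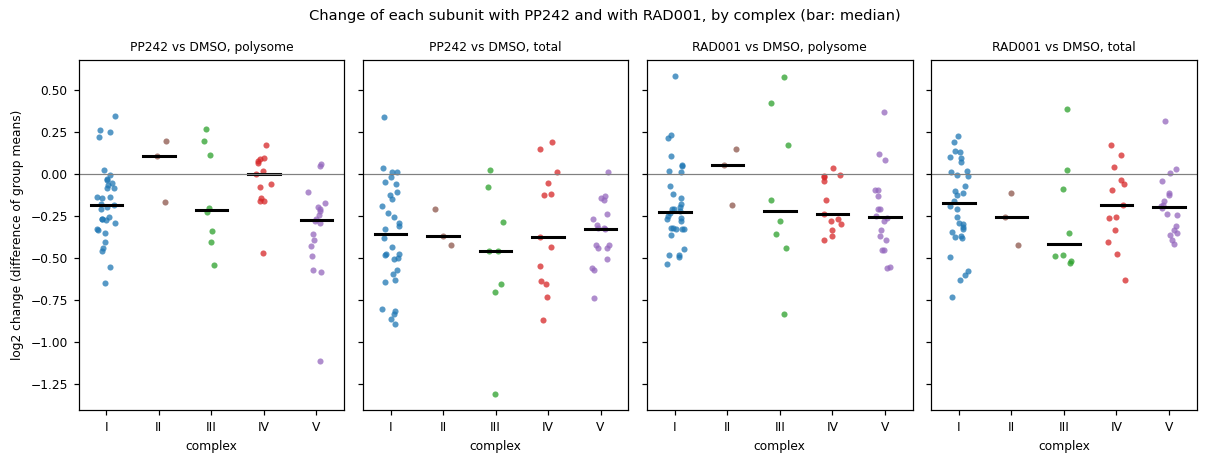
Log2 change of each subunit (vertical axis, difference of group means) for PP242 and RAD001 against DMSO in polysome and total RNA, by complex (horizontal axis), with a point for each gene and a bar for the median. In PP242 polysome RNA the median is -0.27 in complex V and 0.00 in complex IV, and in PP242 total RNA the medians of all 5 complexes lie between -0.46 and -0.32.

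In PP242 total RNA more members lay below DMSO than in polysome RNA. Again 0 of 74 members passed (0.125% of named genes did), with 21 (28.4%) at an unadjusted p under 0.05, against 9.42% of named genes. The median was -0.37 with 65 of 74 below 0 (87.8%), against 0.02 over all named genes and -0.10 over those above the median level, of which 63.8% were below 0. Complex medians were -0.35, -0.37, -0.46, -0.38 and -0.32 for I to V. Without overlap were 13 members on the lower side (17.6%), against 4.87% of named genes and 8.16% of those above the median level, and 0 on the higher side, against 3.03% and 2.83%.

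UQCR10 read 9.54, 8.85 and 9.23 in DMSO total RNA and 8.74, 6.80 and 8.14 with PP242. Its change was -1.31 ± 0.35 (adjusted p = 0.155), and replicate 2 was the low array. NDUFB3 read 9.44, 9.41 and 9.99 with DMSO and 9.07, 8.78 and 8.31 with PP242, a change of -0.89 ± 0.24 (adjusted p = 0.174), with no overlap. The largest positive differences were NDUFA5, an accessory subunit of the peripheral arm of complex I, at 0.34 ± 0.23 (adjusted p = 0.675) and COX6A2, the heart and muscle form of COX6A, at 0.19 ± 0.13 (adjusted p = 0.68). COX6A2 gave a low signal, with a mean of 5.29 over the 35 arrays.

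The total RNA result depended on single arrays. On PP242 total replicate 2 the median member lay at -0.53 from its overall mean, the lowest of 35 arrays, while the median of all named genes on that array was the highest, 5.36. The low level there was not particular to the members. Mitochondrial ribosomal proteins lay at -0.61, assembly factors at -0.55 and citric acid cycle enzymes at -0.84, while leukocyte and endothelial markers lay at 0.40 and 0.39. Without that array the median change was -0.22. Without PP242 total replicate 1 it was -0.47 and 8 members (10.8%, against 1.34% of named genes) passed limma's test, all lower: UQCR10 (-1.73 ± 0.35, adjusted p = 0.0136), NDUFS5 (-0.86 ± 0.18, adjusted p = 0.0177), ATP5PD, NDUFAB1, NDUFB6, NDUFB3, NDUFA11 and NDUFC1. UQCR10 also passed after quantile normalization (-1.28 ± 0.29, adjusted p = 0.0442). The part of that array's higher all-gene level in the members' lower one was not tested, and with every array centred on its median the members' change was -0.42.

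RAD001, against DMSO, gave no called member either. In polysome RNA 0 of 74 passed, as did 0% of named genes, and 4 (5.41%) had an unadjusted p under 0.05, against 2.18% of named genes. The median was -0.23 with 57 of 74 below 0 (77%), against 0.01 over all named genes and -0.06 over those above the median level, of which 60.6% were below 0. Without overlap were 20 members on the lower side (27.0%), against 6.05% of named genes and 9.91% of those above the median level, and 2 (NDUFV1 and ATP5F1B) on the higher side (2.7%), against 5.89% and 3.19%. The complex medians were -0.23 for I, 0.05 for II, -0.22 for III, -0.24 for IV and -0.26 for V.

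UQCR10 read 8.84, 8.42 and 8.58 in DMSO polysome RNA and 8.01, 7.70 and 7.64 with RAD001. All RAD001 arrays were lower, by -0.83 ± 0.35 (adjusted p = 1). ATP5F1E read 7.38, 7.03 and 6.96 with DMSO and 6.77, 6.35 and 6.58 with RAD001, a change of -0.56 ± 0.32 (adjusted p = 1). NDUFV1 read 12.04, 12.02 and 12.69 with RAD001, all above its DMSO arrays, and its change was 0.59 ± 0.25 (adjusted p = 1). UQCRC2 had a difference of 0.58 ± 0.37 (adjusted p = 1).

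In RAD001 total RNA 0 of 74 members passed (0% of named genes), with 8 (10.8%) at an unadjusted p under 0.05, against 7.63% of named genes. The median was -0.20 with 57 of 74 below 0 (77%), against -0.02 over all named genes and -0.07 over those above the median level, of which 59.7% were below 0. The members' median was -0.06 without RAD001 total replicate 2, where the median member lay at -0.38. Arrays of 6 members lay wholly below DMSO (8.11%, against 4.97% of named genes and 7.01% of those above the median level) and of 0 wholly above (against 2.8% and 2.67%). NDUFB3 read 9.31, 8.87 and 8.46 with RAD001, all below its DMSO arrays, a change of -0.73 ± 0.24 (adjusted p = 0.452). COX6A1, the general form of COX6A, had a difference of -0.63 ± 0.35 (adjusted p = 0.721), UQCRC2 of 0.39 ± 0.37 (adjusted p = 0.889) and ATP5F1C of 0.31 ± 0.19 (adjusted p = 0.76).

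**Figure D4:**
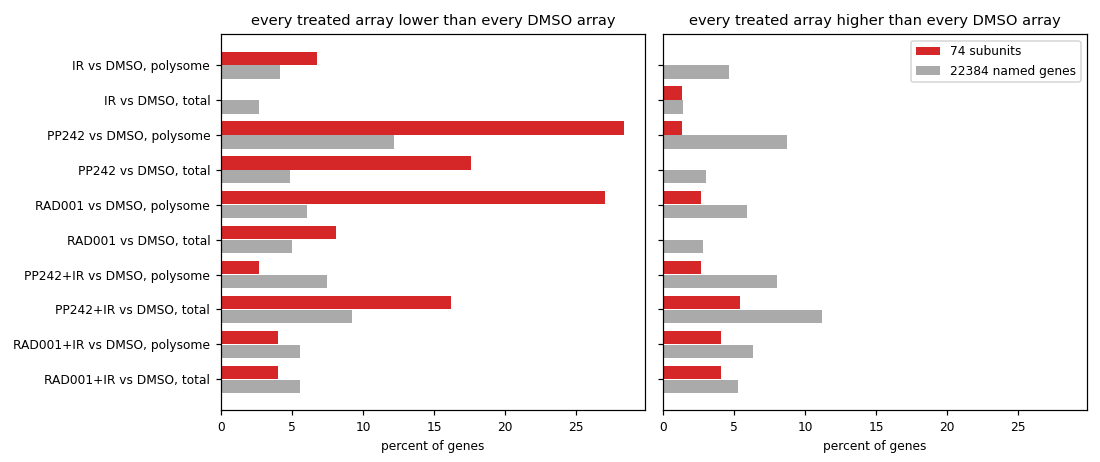
Percent of the 74 subunits (red) and of all 22384 named genes (grey) whose treated arrays all lie below (left) or above (right) every DMSO array, for the 10 comparisons with DMSO (vertical axis). PP242 polysome RNA (28.4% against 12.2%), RAD001 polysome RNA (27.0% against 6.05%) and PP242 total RNA (17.6% against 4.87%) have the longest red bars on the lower side.

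IR alone was compared with DMSO in the same way. In polysome RNA 0 of 74 passed (0% of named genes) and 0 had an unadjusted p under 0.05 (0.809% of named genes did), and the median was -0.14 with 61 below 0 (82.4%), where 57.6% of the named genes above the median level were below 0. Arrays of NDUFB11, NDUFB6, NDUFB7, NDUFS4 and COX5A lay wholly below DMSO (6.76%, against 4.19% of named genes and 5.49% of those above the median level), and of 0 members wholly above (against 4.64% and 2.65%). The largest differences were -0.42 ± 0.35 for NDUFB6 and -0.34 ± 0.30 for NDUFB7, both of complex I, 0.24 ± 0.22 for NDUFS1 and 0.22 ± 0.31 for UQCRC1 (adjusted p = 1 for each). In IR total RNA 0 passed (0%), 0 had an unadjusted p under 0.05 (0.764% of named genes did), the median was 0.01, no member lay wholly below DMSO (against 2.68% and 0.634%), and NDUFB1 lay wholly above (1.35% of members, against 1.42% and 1.05%). The largest differences there were NDUFS6 at -0.29 ± 0.27, ATP5MGL at -0.25 ± 0.24, SDHC at 0.28 ± 0.24 and COX7A2 at 0.26 ± 0.26 (adjusted p = 1 for each).

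With both PP242 and IR, 0 members passed in polysome RNA (0.0938% of named genes did), and 1 (1.35%) had an unadjusted p under 0.05, against 5.7% of named genes. The median was -0.04, against -0.06 over named genes above the median level. Wholly below DMSO were the peripheral stalk subunits ATP5PB and ATP5PO (2.7%, against 7.49% of named genes and 12% of those above the median level), and wholly above were NDUFV1 and CYC1 (2.7%, against 8.01% and 5.71%). ATP5F1D had the largest negative difference, -0.69 ± 0.41 (adjusted p = 0.995), and COX6A1 the largest positive one, 0.48 ± 0.35 (adjusted p = 0.995). NDUFB6 at -0.51 ± 0.35 and COX7A2 at 0.40 ± 0.26 came next (adjusted p = 0.995 for both). All comparisons with DMSO in polysome RNA share its 3 arrays, so this is no independent repeat of ATP5F1D's difference with PP242 alone. In total RNA, which rests on 2 treated arrays, 0 passed (0.0268% of named genes), and 5 (6.76%) had an unadjusted p under 0.05, against 5.25%. The median was -0.19, against 0.01 over named genes above the median level. There 12 members lay wholly below DMSO (16.2%, against 9.22% of named genes and 6.57% of those above the median level) and NDUFA3, NDUFA5, UQCRB and ATP5MGL wholly above (5.41%, against 11.2% and 17%). NDUFA11, a membrane-arm subunit of complex I, read 8.41, 8.06 and 8.62 with DMSO and 7.81 and 7.49 with PP242+IR, a change of -0.71 ± 0.24 (adjusted p = 0.658). UQCR10 had -0.69 ± 0.39 (adjusted p = 0.952), NDUFA5 0.45 ± 0.25 (adjusted p = 0.952) and UQCRB 0.35 ± 0.23 (adjusted p = 0.959).

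With RAD001 and IR, 0 members passed in polysome RNA (0% of named genes) and 0 had an unadjusted p under 0.05, against 2.36% of named genes. The median was 0.03, against -0.06 over named genes above the median level. Wholly below DMSO were NDUFB6, NDUFB7 and ATP5PB (4.05%, against 5.59% of named genes and 9.23% of those above the median level), and wholly above NDUFA10, NDUFA5 and CYC1 (4.05%, against 6.32% and 2.32%). The largest differences were NDUFB6 at -0.41 ± 0.35, ATP5F1D at -0.36 ± 0.41, NDUFV1 at 0.34 ± 0.25 and NDUFA5 at 0.34 ± 0.23 (adjusted p = 1 for each). In total RNA 0 passed (0.00893% of named genes), and 3 (4.05%) had an unadjusted p under 0.05, against 6.23%. The median was -0.07, against -0.01 over named genes above the median level. Wholly below were NDUFB3, ATP5ME and the small subunit ATP5MJ (4.05%, against 5.54% and 4.09%) and wholly above NDUFA3, NDUFA5 and ATP5F1C (4.05%, against 5.27% and 7.41%). ATP5F1C read 15.13, 15.13 and 14.80 in DMSO total RNA and 15.78, 15.24 and 15.40 with RAD001+IR, a change of 0.45 ± 0.19 (adjusted p = 0.751). NDUFB3 had a difference of -0.60 ± 0.24 (adjusted p = 0.718), NDUFA11 of -0.45 ± 0.22 (adjusted p = 0.793) and UQCRC2 of 0.49 ± 0.37 (adjusted p = 0.89).

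**Figure D5:**
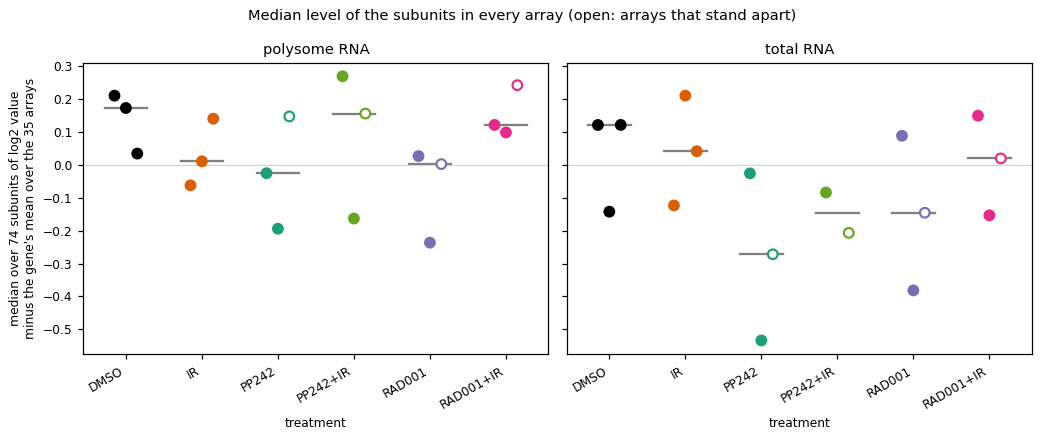
Median over the 74 subunits of the log2 value minus the gene's mean over the 35 arrays (vertical axis) on every array, by treatment (horizontal axis) in polysome and total RNA, with a bar for the group median and open circles for the 8 arrays that stand apart. PP242 total replicate 2 is lowest at -0.53, RAD001 total replicate 2 next at -0.38, and DMSO polysome arrays lie between 0.03 and 0.21.

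The inhibitors were also compared with IR as the shared background, which shares no array with the comparisons of either inhibitor alone with DMSO. For PP242+IR against IR, 0 members passed in polysome RNA (0.13% of named genes) with a median of 0.08 and 1 at an unadjusted p under 0.05 (1.35%, against 5.71% of named genes), and 0 in total RNA (0.0268%) with a median of -0.18 and 8 at that p (10.8%, against 5.53%). Across the 74 members the total RNA change with PP242 had r = 0.69 with that of PP242+IR against IR, and 54 members were below 0 in both. Singly 65 and 58 of the 74 were below 0, so these counts alone make a large overlap. In polysome RNA r was 0.44 and 18 were below 0 in both. For RAD001+IR against IR, 0 passed in polysome RNA (0%) with a median of 0.12 and 0 at that p (against 2.94%), and 0 in total RNA (0.00447%) with a median of -0.08 and 3 at that p (4.05%, against 6%). In its polysome RNA 66 of 74 members were above 0 and 10.8% below, where 53.6% of named genes above the median level were below 0. This is the reverse of RAD001 against DMSO in polysome RNA, where 77% of members were below 0. The RAD001 changes in the absence and presence of IR had r = 0.80 in total RNA, with 46 members below 0 in both, and r = 0.01 in polysome RNA, with 4. Singly 57 and 49 members were below 0 in the RAD001 total RNA comparisons. These are descriptions over members measured on the same arrays. The same r and counts were not taken over all named genes, so they show no likeness particular to the members. RAD001 total replicate 1 and RAD001+IR total replicate 1 are the most alike of all pairs of arrays (r = 0.9976 over named genes). For PP242+IR against IR in polysome RNA, ATP5F1D had -0.37 ± 0.41 (adjusted p = 1), NDUFA9 -0.31 ± 0.30 (adjusted p = 1), COX6A1 0.71 ± 0.35 (adjusted p = 0.878) and COX7A2 0.59 ± 0.26 (adjusted p = 0.804). In total RNA, UQCR10 had -0.75 ± 0.39 (adjusted p = 0.928), NDUFAB1 -0.66 ± 0.30 (adjusted p = 0.862), ATP5MGL 0.58 ± 0.27 (adjusted p = 0.869) and NDUFA5 0.42 ± 0.25 (adjusted p = 0.944). For RAD001+IR against IR the polysome values were -0.27 ± 0.40 for COX8A, -0.16 ± 0.24 for ATP5MGL, 0.49 ± 0.35 for COX6A1 and 0.41 ± 0.27 for COX7A2L (adjusted p = 0.999 for each). In total RNA they were -0.64 ± 0.24 for NDUFB3 (adjusted p = 0.751), -0.59 ± 0.26 for COX7A2 (adjusted p = 0.797), 0.62 ± 0.37 for UQCRC2 (adjusted p = 0.908) and 0.46 ± 0.24 for ATP5MGL (adjusted p = 0.866).

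Translational efficiency was taken as the polysome change minus the total RNA change. In it 0 of 74 members passed for IR, PP242, RAD001, PP242+IR or RAD001+IR, as did 0% of named genes in each, and 0, 2, 1, 0 and 1 members had an unadjusted p under 0.05, against 0.88%, 1.52%, 1.9%, 2.21% and 3.06% of named genes (1 member is 1.35%). The median member value was 0.20 for PP242, with 53 of 74 above 0, and -0.04 for RAD001, with 39 below 0. It was -0.14 for IR, 0.15 for PP242+IR and 0.13 for RAD001+IR, and all-gene medians lay between -0.01 and 0.04. Over named genes above the median level the medians were -0.06 for IR, 0.01 for PP242 and 0.02 for RAD001. They were -0.08 for PP242+IR and -0.05 for RAD001+IR. For PP242 the complex medians were 0.19, 0.41, 0.30, 0.20 and 0.07 for I to V. COX6A1 had 1.04 ± 0.49, CYC1 0.85 ± 0.46, ATP5F1D -0.67 ± 0.59 and ATP5MC1 -0.42 ± 0.27 (adjusted p = 1 for each). These PP242 values take in PP242 total replicate 2, on which the median member lay at -0.53 from its overall mean, so they lean on that array. COX6A1 read 13.88 on it, against 15.31 and 14.50 on PP242 total replicates 1 and 3. For RAD001, NDUFV1 had 0.88 ± 0.35, CYC1 0.70 ± 0.46, NDUFA7 -0.52 ± 0.49 and NDUFB11 -0.51 ± 0.29 (adjusted p = 1 for each). For IR, NDUFB7 had -0.58 ± 0.43, ATP5F1D -0.53 ± 0.59, UQCRC2 0.32 ± 0.53 and NDUFS1 0.25 ± 0.30. For PP242+IR, ATP5MGL had -0.63 ± 0.36, ATP5F1D -0.55 ± 0.62, COX6A1 0.90 ± 0.52 and COX7A2 0.78 ± 0.40. For RAD001+IR, ATP5F1C had -0.56 ± 0.27, ATP5MGL -0.53 ± 0.34, CYC1 0.63 ± 0.46 and COX6A1 0.61 ± 0.49, and the adjusted p was 1 for each of these.

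The 7 members with a TOP-like start were all below 0 in PP242 polysome RNA, from -0.49 (ATP5MG) to -0.08 (COX4I1) with a median of -0.26, and 0 of them passed. Of all 74 members 55 were below 0 there, with a median of -0.17, as were 63.2% of named genes above the median level. Their translational efficiency with PP242 ran from -0.21 to 0.56 with a median of 0.05, and 3 of 7 were below 0. In PP242 total RNA 5 of 7 were below 0, from -0.74 to 0.02 with a median of -0.32. With RAD001 all 7 were below 0 in polysome RNA, from -0.56 to -0.04 with a median of -0.14, and in translational efficiency 3 of 7 were, from -0.38 to 0.35 with a median of 0.03. Of all 74 members 57 were below 0 in RAD001 polysome RNA, with a median of -0.23. Whether the TOP-like starts set these 7 apart from the other members was not tested. The 51 cytosolic ribosomal protein genes had a median of -0.52 in PP242 polysome RNA with 48 below 0, and RPL19 (-0.48 ± 0.10, adjusted p = 0.03), RPS21 (-0.86 ± 0.18, adjusted p = 0.028) and RPS7 (-0.64 ± 0.12, adjusted p = 0.0114) fell. Their median translational efficiency with PP242 was -0.23, with 45 of 51 below 0.

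PP242 and RAD001, which bind mTOR at different places, were compared directly. In polysome RNA 0 of 74 members passed (0.0268% of named genes) and the median difference of PP242 from RAD001 was 0.04, with 29 below 0 and 0 at an unadjusted p under 0.05 (against 3.05% of named genes). ATP5F1D was the lowest at -0.72 ± 0.41 and UQCRC2 next at -0.46 ± 0.37, NDUFA1 the highest at 0.45 ± 0.36 and COX6A1 next at 0.44 ± 0.35 (adjusted p = 1 for each). In total RNA 0 passed (0.00447%), 4 (5.41%) had an unadjusted p under 0.05, against 4.72%, and the median was -0.13 with 64 of 74 below 0 (86.5%). Over all named genes the median was 0.03, and over those above the median level -0.04, with 57.3% below 0. The members' median ran from -0.30 without PP242 total replicate 1 to -0.038 without PP242 total replicate 2. UQCR10 had -0.82 ± 0.35 and the complex I accessory subunit NDUFA9 -0.70 ± 0.30, and NDUFA1 had 0.39 ± 0.36 and UQCRHL 0.19 ± 0.32 (adjusted p = 0.999 for each). In translational efficiency 0 passed (0%), 1 member (1.35%) had an unadjusted p under 0.05, against 1.34% of named genes, and the median was 0.15. UQCR10 had 1.11 ± 0.49, NDUFB7 0.86 ± 0.43, ATP5F1D -0.63 ± 0.59 and NDUFV1 -0.24 ± 0.35 (adjusted p = 1 for each). UQCR10 read 6.80 on PP242 total replicate 2, against 8.74 and 8.14 on replicates 1 and 3. A difference that missed the test does not show that the inhibitors act alike on a member.

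Some subunits are encoded by several genes, and these were set side by side for PP242 against DMSO. The 3 c-ring genes encode the same mature protein, and in polysome RNA ATP5MC1 had -0.57 ± 0.19, ATP5MC2 -0.19 ± 0.17 and ATP5MC3 -0.36 ± 0.19. In total RNA their values were -0.16 ± 0.19, 0.02 ± 0.17 and -0.44 ± 0.19. The general forms COX6A1, COX7A2 and COX7B had -0.87 ± 0.35, -0.43 ± 0.26 and -0.73 ± 0.26 in total RNA, and the tissue-restricted forms COX6A2, COX7A1 and COX7B2 0.19 ± 0.13, -0.12 ± 0.09 and 0.15 ± 0.11. The adjusted p of these values lay between 0.29 and 0.986. COX7A1 and COX7B2, at 3.61 ± 0.08 and 3.36 ± 0.06 in DMSO polysome RNA, were under the all-gene median. COX6A2, with a mean of 5.29 over the 35 arrays, lay close to that median (5.16), so all tissue-restricted forms gave low signals. In polysome RNA COX7B had 0.00 ± 0.26 and in total RNA COX7A2L had 0.01 ± 0.27, COX6B1 -0.12 ± 0.21 and UQCRHL -0.29 ± 0.32. UQCRHL, COX6B1 and the COX7A genes have close copies whose RNA may reach the same probes.

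Lists of genes that work with the subunits were read in the same fits. Of 43 measured assembly factors, 0 passed with PP242 in polysome RNA (median -0.21, 33 below 0) or total RNA (median -0.33, 38 below 0). Between polysome and total RNA of DMSO cells 9 of the 43 passed, 7 lower and 2 higher, where 4.16% of named genes and 8 of 74 members did. Lower were COA3 at -1.18 ± 0.19 (adjusted p = 0.000778), COX20 at -1.19 ± 0.25, the copper chaperone COX17 at -1.09 ± 0.25, TMEM126B, SDHAF3, COX14 and NDUFAF6, and higher were the complex I factors NDUFAF1 at 0.89 ± 0.25 and NDUFAF3 at 0.75 ± 0.17. Of 15 citric acid cycle enzymes, MDH2 (0.88 ± 0.13, adjusted p = 0.000547), IDH3B and IDH3G were higher on polysomes (3 of 15), and 0 passed with PP242. Of 15 regulators of mitochondrial gene expression 0 passed in either, and TFAM, which packages mitochondrial DNA, had -0.11 ± 0.17 in PP242 polysome RNA (adjusted p = 0.968).

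Of 74 mitochondrial ribosomal proteins, MRPL37 (-0.99 ± 0.19) and MRPL43 (-0.53 ± 0.10, adjusted p = 0.0193 for both) fell with PP242 in polysome RNA, and MRPL58 (-1.02 ± 0.21, adjusted p = 0.0427) and MRPS11 (-1.07 ± 0.17, adjusted p = 0.00364) in total RNA. Of all named genes 0.268% and 0.125% passed in these comparisons. The list's medians were -0.32 in polysome RNA with 69 of 74 below 0 and -0.46 in total RNA with 70 below 0, beside -0.17 with 55 and -0.37 with 65 for the 74 respiratory subunits. Between polysome and total RNA of DMSO cells, where 4.16% of named genes passed, several genes of the list passed. All of them were higher in polysome RNA, MRPL37 (0.82 ± 0.19) and MRPL58 (0.76 ± 0.21) among them.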

How the data were processed

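The deposited table holds log2 array values for 35 arrays. Their scale was read from the values (1.85 to 19.9), and how the authors corrected background, normalized and summarized probes is not given in the sources used here. Of its probe sets, 23077 carry 1 gene symbol, 1357 several and 40595 none, and 22384 named genes were kept with the probe set of the highest mean. The members and lists were chosen with earlier results of these data known. Of the symbols the rule gives, 1 is not reported here.

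A model of 12 group means was fitted with limma 3.58.1 (lmFit and eBayes) in R 4.3.3 over all named genes, with Benjamini-Hochberg adjustment at 0.05. Every adjusted p is limma's. On simulated data for PP242 against DMSO in polysome RNA over 22384 genes, 77 of 100 genes changed by 1 on the log2 scale were called, 98 of 100 changed by 2, and 7 of 22184 unchanged ones. These rates belong to the simulated data and need not hold for members of wide spread. ATP5F1D, at -1.11 ± 0.41 in that comparison of the real arrays, did not pass. The array number limits the precision.

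The text names the members called in any comparison, the largest falls and rises per comparison (6 and 4 for PP242 polysome RNA, otherwise 2 of each), the highest and lowest member of each complex, paralogues, and up to 3 called genes a list. Further genes, chosen after their values were seen, illustrate which members lay on the polysome or total RNA side, or did not overlap. Of the marker lists, 0 genes were called against DMSO, and CD3E (-0.68) and CD68 (1.01) were called between polysome and total RNA of DMSO cells. Of 2 alternative subunits outside the rule 0 were called. Alternatives were quantile normalization, centred arrays, a filter on low levels, the mean of all probe sets, a replicate block, array weights, the compared groups alone, all probe sets in the adjustment, and leaving out single arrays or the 8 that stand apart. Replicate numbers pair the arrays by correlated deviations in 3 of 17 comparisons checked (lowest 0.125), as given with the replicate block. PP242+IR against DMSO in total RNA, which has only 2 such pairs (0.39 and 0.514), was not counted among them. Restricting the background to named genes above the median level was added after seeing the data. No doses, times or protocols were used.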

Additional observations from a re-analysis of the deposited data

How the results depend on the processing

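Of the member medians and counts, 785 lay within 1 SD between replicate arrays (medians) or within 1.5 times (counts) of the reported value and 54 did not. For the median over all members that SD was 0.17, about the size of the medians themselves (-0.17 for PP242 polysome RNA). A median that shrank to near 0 could thus still count as within it, so the count does not show that the medians are stable. Medians that moved by over 1.5 times are given with their result. With array weights 2 members (2.7%, against 4.82% of named genes) passed for PP242 polysome RNA, 1 (CYC1, 1.35% against 4.46%) for RAD001+IR total RNA and 35 (47.3% against 29.7%) between polysome and total RNA of DMSO cells. There the compared groups alone gave 13 (17.6% against 4.59%) and a further minimum of 1.5 on the log2 scale gave 1. For PP242 total RNA, quantile normalization gave 1 (1.35% against 0.407%), and leaving out single arrays gave 0 to 8. Between polysome and total RNA of DMSO cells single left-out arrays gave 2 to 7. The median for PP242 against RAD001 in total RNA ran from -0.30 to -0.038 over single left-out arrays. At an unadjusted p under 0.05, against DMSO, 7 (PP242 polysome), 21 (PP242 total), 4 (RAD001 polysome), 8 (RAD001 total), 1 (PP242+IR polysome), 5 (PP242+IR total) and 3 (RAD001+IR total) passed, in translational efficiency 2 (PP242), 1 (RAD001) and 1 (RAD001+IR), against IR 1 and 8 (PP242+IR polysome and total) and 3 (RAD001+IR total), and for PP242 against RAD001 4 in total RNA and 1 in translational efficiency. The shares of named genes at that p stand beside these counts in the comparisons. Between polysome and total RNA of DMSO cells 23 members (31.1%, against 18.9% of named genes) had an unadjusted p under 0.05.

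Members wholly below DMSO, each with the percent of named genes in brackets, numbered after quantile normalization 1 for IR total (2.5%), 13 for RAD001 total (9.1%), 1 for PP242+IR polysome (7.34%), 19 for PP242+IR total (11.3%), 1 for RAD001+IR polysome (6.09%) and 8 for RAD001+IR total (8.52%). Without the 8 arrays they numbered 39 for PP242 polysome (19.6%), 35 for RAD001 polysome (10.8%), 11 for RAD001 total (9.97%), 5 for PP242+IR polysome (12%), 23 for PP242+IR total (27.5%), 9 for RAD001+IR polysome (10.4%) and 11 for RAD001+IR total (12.6%), and 2 for IR total with centred arrays (3.19%). Members wholly above DMSO numbered, after quantile normalization, 0 for IR total (2.21%), 2 for PP242 polysome (8.23%), 4 for RAD001 polysome (5.54%), 4 for PP242+IR polysome (6.92%), 2 for PP242+IR total (10.9%), 8 for RAD001+IR polysome (4.64%) and 1 for RAD001+IR total (4.12%). Without the 8 arrays they numbered 1 for PP242 total (6.41%) and 10 for PP242+IR total (24.1%), and 1 for PP242+IR polysome with centred arrays (7.33%). A member is 1.35% of the 74. Fewer arrays make non-overlap easier. The cause of the other moves was not tested.

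With a replicate block, 1 member (UQCR10, adjusted p = 0.0403, in a fit that called 0.424% of named genes) passed for PP242 total RNA and 12 (16.2% against 7.12%) between polysome and total RNA of DMSO cells. In neither comparison did every same-numbered pair of arrays have deviations correlated over 0.1 (lowest 0.032 and -0.082), so the numbers were not taken to pair these arrays. Every pair was over 0.1 for IR against DMSO in polysome RNA and for PP242 against RAD001 in both fractions, where the block changed no member's call. Both pairs of PP242+IR against DMSO in total RNA were over 0.1 as well (0.39 and 0.514), and 0 members passed there with the block. Over all groups, same-numbered arrays had a median correlation of 0.124 (over 0.1 in 102 of 187 pairs) and others -0.053 (81 of 374). Polysome and total arrays of 1 number were over 0.1 in every pair of PP242, RAD001 and RAD001+IR, and not in every pair of DMSO, IR and PP242+IR.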
